A study of Mus musculus with 54 samples.

Results

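Granulosa cells of growing follicles make estradiol and activin or inhibin subunits under the drive of FSH. The level of this program differed among the follicle sides sequenced here. The 14 putative ruptured sides from follicles without hCG were ranked by the mean log2(TPM + 1) of Inhba, Cyp19a1, Hsd17b1 and Fshr, and the 5 highest were set against the 5 lowest, which gives 10 of the 54 libraries of the series. The 5 sides at the top are called the high granulosa state and the 5 at the bottom the low granulosa state. FSH binds its receptor (Fshr) on granulosa cells, raises cAMP, and turns on aromatase (Cyp19a1) and 17-beta-hydroxysteroid dehydrogenase 1 (Hsd17b1), which together complete estradiol synthesis, and Inhba, the subunit shared by activin A and inhibin A. The ovulatory LH signal, for which hCG stands in, shuts much of this program down as the cells luteinize.

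Secondary follicles of 14 to 16 day-old CD-1 mice were grown in alginate for 8 days and then kept 12 h in maturation medium, either without hCG (14 putative ruptured and 15 putative unruptured sides) or with it (13 ruptured and 12 unruptured sides). Follicles were cut under the microscope into the side expected to rupture, or already ruptured, and the rest of the wall, and each side gave 1 Smart-seq2 library. The follicles were grown outside the ovary and the sides without hCG were told apart by morphology, with help from an imaging model, before any rupture, so a piece could hold wall from both regions. Cumulus-oocyte complex is what the labels give for the tissue, although by the study's methods the complex had been taken out. Of the 12 oocyte markers, 7 were at 0 in all 5 low libraries and 2 in all 5 high ones, and their summed level stayed at or under 2.63 TPM in every library of both states except replicate 12 of the high state, at 27.1 TPM. The labels do not say which sides came from one follicle or one animal, so p-values measure the spread between these sides. Between 1497138 and 2029041 estimated counts fell on genes in each of the 14 libraries.

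The marker scores that chose the libraries were 7.43, 7.02, 6.74, 6.65 and 6.50 in the high state (replicates 6, 8, 12, 3 and 13) and 4.90, 4.35, 4.27, 4.12 and 3.46 in the low state (replicates 11, 5, 10, 4 and 1). All values per library below follow this order. The 4 libraries in between scored 6.48, 6.12, 5.70 and 5.62, so the upper limit separates libraries that differ by 0.01 whereas the lower limit lies in a gap of 0.72. Inhba spanned 1723 to 3940.05 TPM in the high state and 76.8 to 321 TPM in the low state, Hsd17b1 122 to 226 against 11 to 26.0 TPM, and Fshr 3.63 to 8.36 against 0.88 to 2.43 TPM. Cyp19a1 overlapped, at 44.9 to 111 against 6.42 to 45.3 TPM. In the other groups the score was lower: 1.52 to 4.69 on the putative unruptured sides, 1.45 to 2.51 on the ruptured and 1.42 to 2.03 on the unruptured sides post-hCG. Only 3 of the 15 putative unruptured sides reached the lowest score of the low state.

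**Figure D1:**
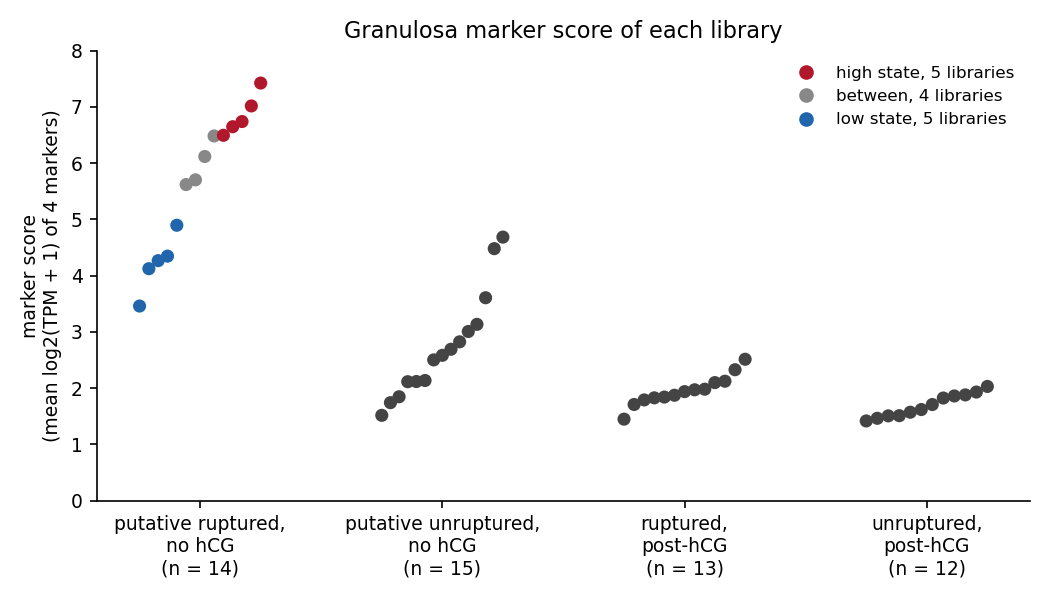
Marker score of each of the 54 libraries (mean log2(TPM + 1) of Inhba, Cyp19a1, Hsd17b1 and Fshr), 1 point per library, ordered within each group. The putative ruptured sides spread from 3.46 to 7.43 and the post-hCG libraries of both sides stay at or under 2.51.

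Because the libraries were chosen by their own expression, differences between the states are given as a description with no test. A gene counts as higher or lower where the 5 high and 5 low libraries do not overlap in TMM-scaled CPM (counts scaled to a common library size) and the fitted log2 fold is at least 1. By this rule 65 genes were higher (0.754% of the 8619 genes fitted, markers left out) and 20 were lower (0.232%). Without the fold limit 154 genes (1.79%) lay above and 81 (0.94%) below. Replicate 12 of the high state weighs on the second count: without it 115 of 8815 genes (1.3%) were lower and 74 (0.839%) higher. The genes at the top of the list were Nap1l5, Inhbb and Zpld1, and the lowest were Bicc1 and Fzd1. Of the 65 higher genes 62 had a median in the 4 libraries in between that lay between the medians of the states. So did 17 of the 20 lower genes and 4393 of 10519 genes, a wider set than the 8619 fitted here. The libraries in between were ranked by the same score and the genes picked for a gap between the states. This order was thus largely set by the choice.

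Promoters of Inhba and Fshr, which chose the libraries, and of Nap1l5 and Zpld1, whose level also followed the score on the putative unruptured side, are shown as RefSeq gives them for GRCm38.p6, each with 250 bases before the start and 50 after, on the strand of the gene. The positions are chr13:16011601-16011900 for Inhba, chr17:89200626-89200925 for Fshr, chr6:58907077-58907376 for Nap1l5 and chr16:55283188-55283487 for Zpld1. Of the 4 markers 3 matched the table, of which Cyp19a1 has several starts and is not shown. Capitals mark matches to 3 motifs searched on both strands, the cAMP response element core TGACGT, the E-box CACGTG and the NR5A site AAGGTCA, none of which overlapped another here.
Inhba: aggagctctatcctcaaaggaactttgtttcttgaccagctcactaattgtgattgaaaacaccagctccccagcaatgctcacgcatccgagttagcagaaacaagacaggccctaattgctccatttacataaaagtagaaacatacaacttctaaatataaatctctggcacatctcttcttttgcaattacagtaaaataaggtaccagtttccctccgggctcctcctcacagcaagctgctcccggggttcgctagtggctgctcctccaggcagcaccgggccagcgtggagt
Fshr: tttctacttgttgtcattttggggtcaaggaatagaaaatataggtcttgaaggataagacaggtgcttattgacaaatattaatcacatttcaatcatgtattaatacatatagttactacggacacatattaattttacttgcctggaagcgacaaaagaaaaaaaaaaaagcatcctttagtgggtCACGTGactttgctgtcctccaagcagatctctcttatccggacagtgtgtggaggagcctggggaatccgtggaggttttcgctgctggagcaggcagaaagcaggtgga
Nap1l5: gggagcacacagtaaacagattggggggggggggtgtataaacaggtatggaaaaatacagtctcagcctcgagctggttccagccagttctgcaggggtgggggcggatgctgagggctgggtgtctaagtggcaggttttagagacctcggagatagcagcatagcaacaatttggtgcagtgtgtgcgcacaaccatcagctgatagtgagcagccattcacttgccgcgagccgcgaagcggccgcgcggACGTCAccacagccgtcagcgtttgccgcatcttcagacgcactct
Zpld1: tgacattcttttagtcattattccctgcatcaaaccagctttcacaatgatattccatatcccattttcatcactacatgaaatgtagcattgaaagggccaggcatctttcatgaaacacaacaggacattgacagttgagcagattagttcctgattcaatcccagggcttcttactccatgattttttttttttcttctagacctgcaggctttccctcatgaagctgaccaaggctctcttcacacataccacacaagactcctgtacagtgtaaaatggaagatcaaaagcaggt
Fshr holds an E-box before its start, and Nap1l5 holds the cAMP response element core, on the other strand, just after the RefSeq start. GENCODE vM21 begins Nap1l5 directly past the end of this window, so by that annotation the match lies upstream of the gene, and it places the Zpld1 window inside the gene. Neither Inhba nor Zpld1 has any of the 3 in this window. Among all 32851 RefSeq promoters TGACGT is held by 7.51%, CACGTG by 7.15% and AAGGTCA by 4.72%, so a match describes these letters only. The 65 higher genes matched 61 promoters of 49 genes, of which 4 held TGACGT, 8 CACGTG and 2 AAGGTCA.

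Inhibin and activin subunits besides the chosen Inhba were among the genes that separated the states. Inhbb, the beta B subunit of inhibin and activin, was at 47.8, 71.5, 46.9, 39.8 and 46.0 CPM in the high state and 12.0, 9.99, 7.44, 1.94 and 1.10 CPM in the low state. Its log2 fold was 2.94, a 7.70-fold difference. Inha encodes the alpha subunit, which joins a beta subunit to make inhibin. It was at 26425, 31816, 25802, 23229 and 29991 CPM against 13004, 8392, 11606, 10118 and 6885 CPM (log2 fold 1.44). For both genes every high library lay above every low one, and the lowest Inhbb values were those of the 2 lowest-scoring sides.

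Nap1l5, an imprinted gene of the nucleosome assembly protein family, had the highest log2 fold, 3.14. It was at 693, 1349, 839.6, 541 and 875 CPM in the high state and 117, 136, 88.6, 72.9 and 65.3 CPM in the low state. It lies at chr6:58905233-58907076 (GRCm38, GENCODE vM21, minus strand). Its neighbor Fam13a, at chr6:58932090-59024549 on the same strand, was also higher, at 104 to 184 against 18.0 to 78.2 CPM (log2 fold 1.69). Zpld1, which encodes a protein with a zona pellucida-like domain, was at 194, 602, 599, 321 and 808 CPM against 59.4, 98.7, 97.4, 52.9 and 54.3 CPM (log2 fold 2.78). The highest-scoring library was the lowest of the high state for Zpld1, so the gene did not follow the score within the state. Chst8 encodes a sulfotransferase that modifies N-glycans of hormones. It was at 215, 141, 161, 139 and 189 CPM against 54.5, 66.4, 33.1, 14.6 and 24.7 CPM (log2 fold 2.11). The paper lists Nap1l5, Zpld1 and Chst8, with the markers Inhba, Hsd17b1 and Cyp19a1, among its top genes of the putative ruptured side. Whether the split of the libraries follows the follicle or the place of the cut was not tested.

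Nppc encodes C-type natriuretic peptide, the granulosa signal that holds the oocyte in meiotic arrest. It was at 25.0, 42.9, 25.1, 14.5 and 15.5 CPM in the high state and 7.63, 7.64, 2.71, 3.89 and 2.75 CPM in the low state (log2 fold 2.27). Npr2, its receptor and a member of the cumulus list, overlapped (log2 fold 0.16). Adgrg1, an adhesion G protein-coupled receptor, was at 133, 92.3, 76.5, 61.3 and 40.6 CPM against 33.3, 13.5, 13.5, 16.0 and 4.39 CPM (log2 fold 2.30), in the order of the score among the high libraries. Of the other genes named by size, Tnni3, a troponin subunit, had a log2 fold of 2.04, Crabp2, which carries retinoic acid to its receptor, 1.83, the matrix protein Comp 1.77, the plasma protein Fetub 1.66 and Lzts1 1.60. For each of these the lowest high library lay above the highest low one.

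**Figure D2:**
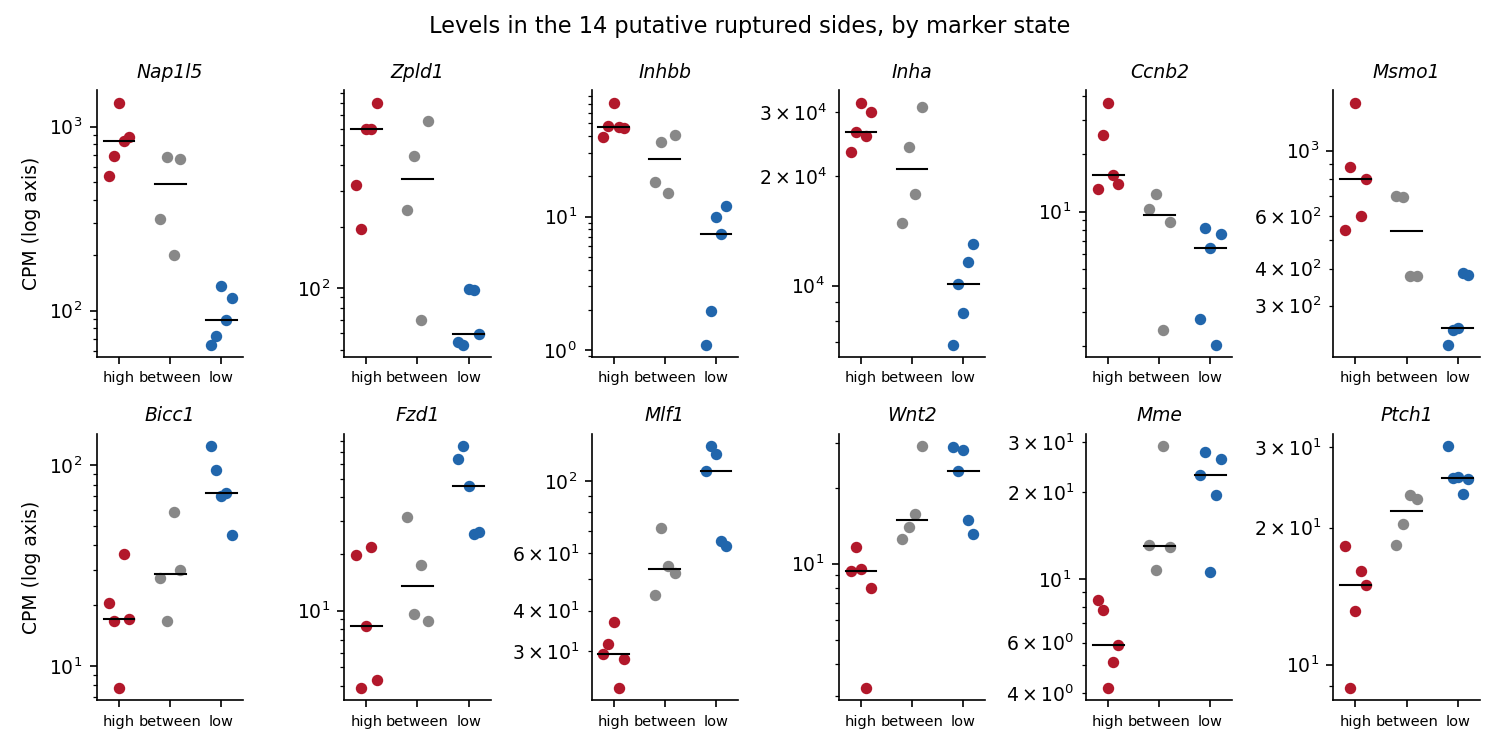
CPM (TMM-scaled, log axis) of 12 genes in the 5 high, 4 between and 5 low libraries, 1 point per library, with the median as a line. The upper row holds genes higher in the high state and the lower row genes that were lower, and in each panel the high and low points do not overlap.

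Of the list of FSH targets and granulosa identity genes, 26 were measured besides the markers. Of these 22 had a log2 fold above 0 and 5 did not overlap, all with the high state on top: Nap1l5, Inhbb, Inha, Serpine2 and Gja1. The list was chosen with earlier results of these data known. Nap1l5 is among the paper's top genes of the putative ruptured side, so its place here is not independent of these data. The list's median log2 fold was 0.34, against -0.01 over all genes, of which 4149 of 8619 had a log2 fold above 0 and 1.79% lay above without overlap. Serpine2, an inhibitor of serine proteases that granulosa cells secrete, was at 3339, 5235, 5163, 3289 and 6062 CPM against 1409, 1099.6, 1809.5, 1536 and 2274 CPM (log2 fold 1.49). Gja1, the connexin of granulosa gap junctions, was at 20656 to 29495 against 6706 to 18184 CPM (log2 fold 0.92). Lhcgr, the LH receptor that FSH induces in mural granulosa cells, had a log2 fold of 2.62 but overlapped, with 460.3, 85.8, 105, 31.4 and 52.4 CPM against 55.6, 11.8, 39.9, 3.89 and 8.23 CPM, and 1 library carried its upper end. Genes that mark granulosa identity overlapped as well, with log2 folds of 1.05 for Foxl2, -0.06 for Nr5a1, -0.07 for Gata4 and 0.40 for Amhr2. Gpx3, an antioxidant enzyme and a member of this list named after its values were seen, had a log2 fold of -3.03 that came mostly from 1 low library at 1011 CPM, and the other 4 low libraries ran from 5.34 to 135 CPM.

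Of the 26 cell cycle genes measured, 6 were higher in the high state by the rule above (0.754% of all genes). The libraries did not overlap for 8, all with the high state on top (1.79% of all genes): Ccnb1, Ccnb2, Ccna2, Plk1, Kif20a, Prc1, Mcm3 and Rrm1. The log2 fold was above 0 for 25 of the 26, against 4149 of 8619 genes, and its median was 0.92. Ccnb2, a mitotic cyclin, was at 25.0, 36.9, 15.4, 13.1 and 13.9 CPM against 7.63, 6.46, 2.03, 8.26 and 2.75 CPM (log2 fold 1.88). Kif20a, a kinesin of the mitotic spindle midzone, was at 7.49 to 22.5 against 1.65 to 4.36 CPM (log2 fold 2.11). Ube2c, the ubiquitin-conjugating enzyme of the anaphase-promoting complex, was at 29.5 to 91.8 against 9.47 to 20.9 CPM (log2 fold 1.81). Mcm3 and Rrm1 act in DNA replication and the other 6 in the G2 phase or mitosis. The replication genes Mcm2, Mcm4, Mcm5, Mcm6, Mcm7, Pcna and Tyms overlapped, with log2 folds between 0.01 and 0.46.

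Of the 24 genes of cholesterol synthesis and uptake, 3 were higher by the same rule (0.754% of all genes). The high libraries lay above the low ones for 5 (1.79% of all genes), namely Hmgcs1, Sqle, Msmo1, Sc5d and Dhcr7, and overlapped for the rest. The log2 fold ran from 0.03 to 1.49 with a median of 0.83. It was above 0 for all 24, against 4149 of 8619 genes. Msmo1, a sterol demethylase, was at 877, 1451, 603, 539 and 799 CPM in the high state and 381, 252, 387, 248 and 222 CPM in the low state (log2 fold 1.49). Dhcr7, which makes the last step to cholesterol, was at 52.4 to 90.0 against 20.9 to 39.3 CPM (log2 fold 1.21). In the steroid synthesis list none of 11 measured members separated the states once Cyp19a1 and Hsd17b1 were left out. Hsd3b1, which turns pregnenolone into progesterone, was at 7779 to 19507 against 2901 to 9858 CPM (log2 fold 1.28). Star, which carries cholesterol into mitochondria, was at 109 CPM in replicate 12 and 3.74 to 7.22 CPM in the other high libraries, against 23.5 to 112 CPM in the low state.

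In the remaining lists few members separated (over all genes 1.79% lay above and 0.94% below). Hey2, a Notch target, was the only one of 7 measured in the Notch list, at 42.8 to 69.5 against 22.5 to 31.1 CPM (log2 fold 1.06), and the ligand Jag1 overlapped (1.02). Hif1a, the oxygen-regulated transcription factor, was the only one of 10 in the hypoxia list, at 1436 to 2317 against 513 to 1289 CPM (log2 fold 1.01). No member separated among 9 measured genes of the LH and ovulation response, 6 of the cumulus list, 15 p53 targets, 11 amino acid transporters, 20 glycolysis genes, 12 immediate early genes and 11 cAMP signaling genes. The medians of these lists ran from -0.23 for the LH response to 0.46 for amino acid transport.

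**Figure D3:**
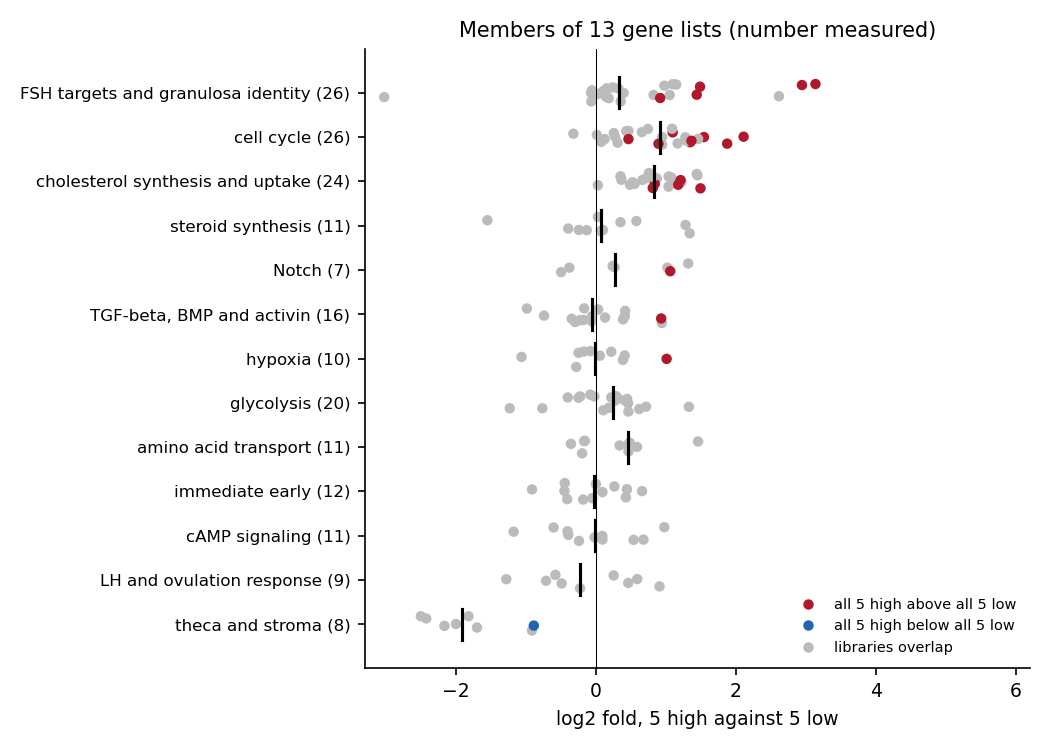
log2 fold between the 5 high and 5 low libraries for each measured member of 13 gene lists, 1 point per gene, with the list median as a line. Red points are genes whose high libraries all lie above the low ones and the blue point, Ptch1, lies below. Cell cycle and cholesterol genes sit right of 0 and theca and stroma genes left of it.

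Genes lower in the high state included Bicc1, Fzd1 and Wnt2, and Wnt genes were not counted as a set. Bicc1, an RNA-binding protein at chr10:70922832-71159700, was at 16.7, 7.75, 36.0, 20.6 and 17.1 CPM in the high state and 44.7, 69.9, 73.0, 94.2 and 125 CPM in the low state, a log2 fold of -2.06. Fzd1, a Wnt receptor at chr5:4753839-4758035, was at 3.89, 8.34, 21.9, 19.7 and 4.28 CPM against 26.2, 45.8, 25.7, 74.8 and 64.2 CPM (log2 fold -2.04). Wnt2, a ligand that granulosa cells express, was at 3.21 to 11.7 against 13.1 to 29.1 CPM (log2 fold -1.38). With 7 libraries a state its log2 fold was -0.72. Within each state the library order differed among the 3 genes. Syt1, a calcium sensor of vesicle release, had a log2 fold of -1.89, the membrane peptidase Mme -1.76, Mlf1 -1.71 and Pamr1 -1.60. Mlf1 was at 23.1 to 36.9 against 63.2 to 128 CPM, with narrow spread among the high libraries. Gpr37 and Dpp6 each had a log2 fold of -1.38, Hspb1 -1.27, the chromatin protein Hmga1 -1.25, Adgrl2 -1.17 and Sorbs2 -1.12.

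Markers of theca and stroma moved with the states. Their summed level was 22.8 to 565 TPM in the high state (median 32.0) and 77.0 to 874 TPM in the low state (median 444), and all 8 measured members had a log2 fold below 0 (median -1.91). Only Ptch1, the hedgehog receptor, did not overlap, at 8.88 to 18.3 against 23.7 to 30.2 CPM (log2 fold -0.89). The overlap came from replicate 12 of the high state: without it the sum was 22.8 to 52.97 TPM and 5 of the 8 members lay below the low libraries, Col1a1, Col1a2, Col3a1, Dcn and Ptch1, as did 227 of all 8815 genes (2.58%). None of the 16 theca and stroma markers was at 0 throughout a state. Smooth muscle markers summed to 7.69 to 29.2 against 19.6 to 52.8 TPM, immune markers to 0 to 21.2 against 0.23 to 39.5 TPM, endothelial markers to 0.40 to 9.54 against 0.45 to 5.71 TPM, cumulus markers to 116 to 221 against 81.1 to 189 TPM and surface epithelium markers to 0.11 to 3.56 against 0.15 to 4.16 TPM. In bulk tissue fewer cells of a type and less RNA per cell cannot be told apart. A fit with the theca and stroma level as a second term was also run, without regard to overlap. In it 57 of the 65 higher and 16 of the 20 lower genes had a log2 fold of at least 1 in size. It used the same genes and libraries, and the level moved with the state, so it cannot tell state and level apart. Total counts (1588091 to 2029041 against 1497138 to 1846369) and mitochondrial shares (5.63 to 7.66% against 4.98 to 8.50%) overlapped. The sample names carry a letter and a number whose meaning is not given in the sources used here. Of the high libraries 1 has the letter G and 4 have H, of the low ones 3 have G and 2 have H, and its part in the differences was not tested.

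**Figure D4:**
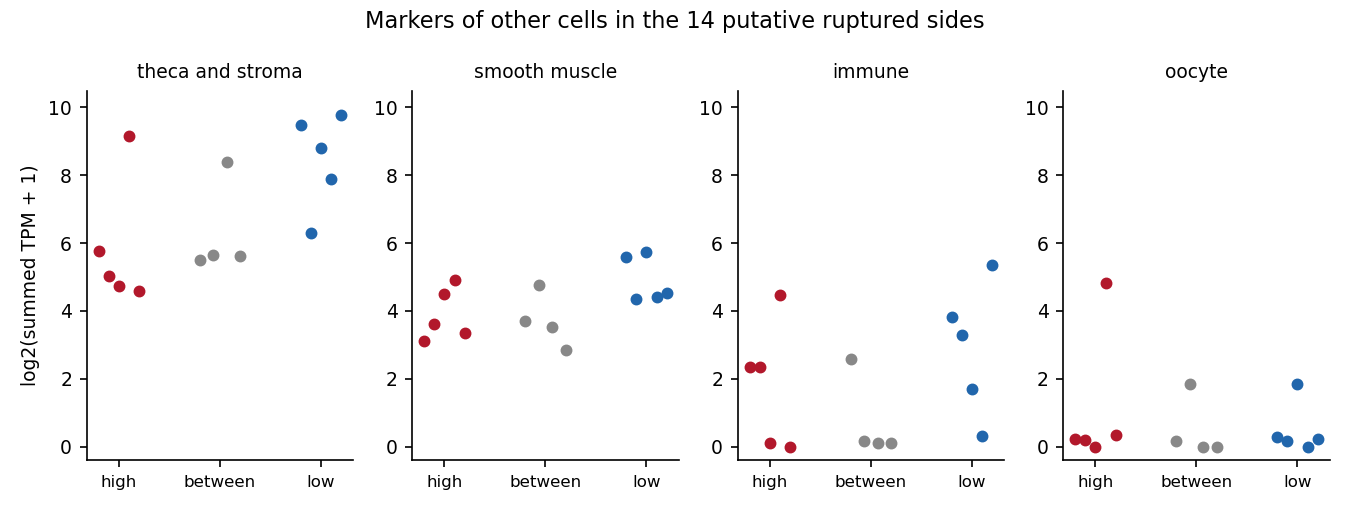
Summed TPM of marker lists of 4 other cell types, as log2(sum + 1), in the high, between and low libraries, 1 point per library. In the high state 1 library, replicate 12, stands above the other 4 for theca and stroma, immune and oocyte markers.

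The putative unruptured sides had no part in choosing the libraries, so the same score was tested there as a slope, the change in log2 level per unit of score over 15 libraries (edgeR quasi-likelihood test, Benjamini-Hochberg over all genes). Of 10453 genes 13 rose with the score (0.124%) and 0 fell (0.0%), with 594 genes at an unadjusted p under 0.05. Of the 65 genes higher in the high state 63 were tested and 6 rose: Nap1l5, Zpld1, Plekhd1, Chst8, Fam13a and Tox2. The slope was above 0 for 59 of the 63, against 4901 of 10453 genes, with a median of 0.26 against -0.01 over all genes. Of the 20 lower genes none passed, and 16 had a slope below 0 (median -0.12), against 5552 of 10453 genes.

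Zpld1 rose by 1.53 ± 0.16 log2 units per unit of score (SE, n = 15, adjusted p = 2.17e-05, edgeR). Its level was 0.70 to 33.1 TPM with a median of 2.06 TPM, and the 2 sides with the highest scores, replicates 15 and 9, were at 33.1 and 10.1 TPM. Nap1l5 rose by 1.25 ± 0.11 (adjusted p = 1.69e-06, edgeR), with 1.48 to 48.4 TPM, a median of 5.69 TPM, and 48.4 and 39.0 TPM in the same 2 sides. These 2 libraries were the highest of the group for both genes. Hsd11b2, which inactivates glucocorticoids, rose by 1.09 ± 0.15 (adjusted p = 0.0013, edgeR), and it overlapped between the states, at 31.6 to 98.9 against 4.37 to 49.6 CPM. Apoa4, an apolipoprotein (1.09 ± 0.18), and Epas1, a hypoxia-inducible factor (0.81 ± 0.14), each had an adjusted p of 0.00976 (edgeR). Epas1 overlapped between the states, at 23.2 to 69.3 against 14.6 to 131 CPM (log2 fold -0.17). The other genes that rose were Prdm1, Bmp3, Arhgef28 and Fam171b. The paper gives Nap1l5, Zpld1, Chst8, Hsd11b2, Apoa4 and Epas1 as higher on the putative ruptured side without hCG. Whether these slopes follow the granulosa state or the place of the cut was not tested. Inhbb (0.74 ± 0.16, adjusted p = 0.097, edgeR) and Crabp2 (0.64 ± 0.14, adjusted p = 0.0817, edgeR) did not pass.

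Replicate 15 carried much of this result. Without it 2 of the 13 genes passed, Nap1l5 (slope 1.19, adjusted p = 0.000484, edgeR) and Zpld1 (slope 1.24, adjusted p = 0.047, edgeR), and without the 2 libraries farthest from the median score 0 genes passed in either direction. The calls thus rest on those 2 sides. The slopes of Zpld1 and Nap1l5 were 1.59 and 1.23 in that setting, each with an adjusted p of 0.0993 (edgeR), and 1648 of 10319 genes had an unadjusted p under 0.05. Without replicate 15 the slope was above 0 for 52 of the 63 higher genes, against 49.6% of all genes, and without the 2 libraries for 41 of 60, against 52.0%. Of the cell cycle list 0 of 30 tested genes passed on this side (24 with a slope above 0, median 0.14), and of the cholesterol list 0 of 24 (18 above 0, median 0.11). Of all 10453 genes 46.9% had a slope above 0. The p-values that missed the threshold do not show that these genes kept one level. In the theca and stroma list 0 of 12 passed (median slope -0.13).

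**Figure D5:**
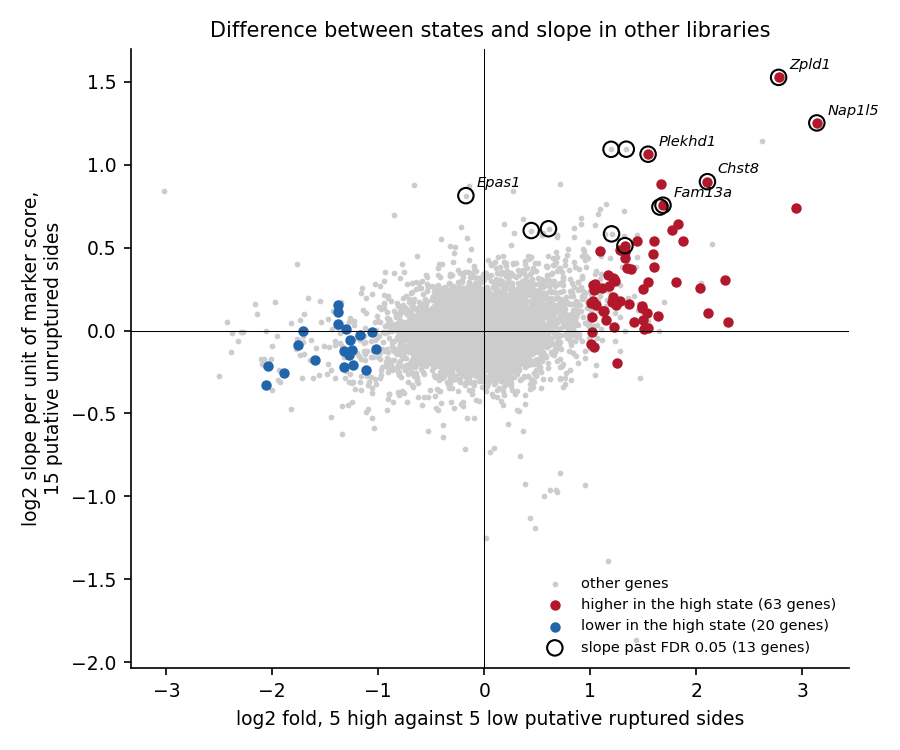
log2 fold between the states (x) against log2 slope per unit of score on the 15 putative unruptured sides (y), 1 point per gene, markers left out. Red and blue points are genes higher and lower in the high state and rings mark the 13 genes with a slope past an FDR of 0.05, of which 6 are red.

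Post-hCG the marker score ran only from 1.42 to 2.51 over 25 libraries, and with the side as a term 0 of 9780 genes (0.0%) had a slope past the threshold (edgeR). At an unadjusted p under 0.05 there were 642 genes, DESeq2 called 2 genes and limma on log2(TPM + 1) called 0. Of the 65 higher genes 54 were tested, 43 with a slope above 0 (median 0.40 against 0.00), and of the 20 lower genes 15 were tested, 12 with a slope below 0 (median -0.37). Among 9481 genes, a narrower set than the 9780 tested, 4746 had a slope above 0 and 4735 below 0. Nap1l5 had a slope of 1.34 ± 0.49 and Chst8 of 1.56 ± 0.51, neither of which passed after adjustment.

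The response to hCG was tested on the unruptured side, again in libraries the rule did not use (15 without and 12 with hCG, edgeR). Libraries with hCG carry the letter B or C in the sample names here and those without carry F or G. The letter and hCG thus cannot be told apart. Of 9316 genes 2364 rose (25.4%) and 2579 fell (27.7%), or 1454 and 3841 with library totals in place of TMM. The markers moved in both directions: Cyp19a1 fell by 5.47 ± 0.61 log2 units (SE, adjusted p = 4.59e-09, edgeR), Hsd17b1 by 3.32 ± 0.54 (5.05e-06) and Inhba by 1.89 ± 0.47 (0.00115), whereas Fshr rose by 1.60 ± 0.36 (0.000357). Cyp19a1 was at 0.96 to 45.3 TPM without hCG and 0 to 0.48 TPM with it, and the groups did not overlap. Fshr, at 0 to 2.39 and 0.86 to 5.48 TPM, did overlap.

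Genes higher in the high state were split by hCG. Of the 45 tested 17 rose (37.8%) and 17 fell (37.8%), against 25.4% and 27.7% of all genes, with a median of 0.10. Nap1l5 fell by 2.12 ± 0.46 log2 units (adjusted p = 0.000246, edgeR), Zpld1 by 3.04 ± 0.64 (0.000175), Fam13a by 2.0 ± 0.30 (1.59e-06), Chst8 by 1.29 ± 0.36 (0.00312) and Inha by 1.11 ± 0.26 (0.000483). Inhbb rose by 0.81 ± 0.32 (0.0356), Adgrg1 by 0.83 ± 0.26 (0.0088), Plekhd1 by 1.97 ± 0.35 (1.66e-05) and Tox2 by 1.28 ± 0.20 (2.8e-06). The inhibin alpha and beta A genes thus fell and beta B rose. Gja1 fell by 3.31 ± 0.24 (4.12e-13) and Hey2 by 1.45 ± 0.22 (1.68e-06).

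Over all genes tested with hCG 25.4% rose and 27.7% fell. In the lists with members that did not overlap, 23 of 24 cholesterol genes rose. Among them were Dhcr7 (3.95 ± 0.19 log2 units, adjusted p = 9.63e-18, edgeR) and Msmo1 (1.44 ± 0.18, 5.51e-08). Of 17 tested cell cycle genes 9 fell (Ccna2 by 1.42 ± 0.42, 0.00483). In the FSH list 15 of 26 fell and 6 rose, Lhcgr among them (3.90 ± 0.53, 2.34e-07). Of the 20 genes lower in the high state 15 fell (75.0%) and 3 rose, with a median of -1.38. Wnt2 fell by 4.36 ± 0.45 (7.99e-10), Bicc1 by 1.99 ± 0.19 (1.47e-10) and Fzd1 by 1.11 ± 0.23 (0.00015), whereas Hmga1 rose by 2.57 ± 0.22 (1.3e-11). In the same comparison 7 of 10 theca and stroma genes fell (median -1.60), and the summed level of that list was 141 to 3013 TPM without and 88.4 to 1389 TPM with hCG, whose part in the falls was not tested.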

How the data were processed

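Smart-seq2 libraries of single follicle sides were analysed from 2 tables of the whole series, both with 25149 genes and 54 libraries. The authors mapped reads to GRCm38 with HISAT2 and deposited estimated counts per gene, of which 72.2% of those above 0 were whole, and a table of TPM values. The study's methods describe a batch correction with ComBat-seq, and whether the deposited values precede it is not given in the sources used here. The counting tool is not given there either. The submitters' processing notes name Seurat 4. Groups came from the labels.

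The markers, gene lists and rule were chosen with earlier results of these data known. Scores used log2(TPM + 1). Counts were rounded and fitted with edgeR 4.0.16 in R 4.3.3 (TMM, filterByExpr with a minimum count of 10 and total of 15), and CPM are TMM-scaled and not compared between genes. Adjusted p-values are Benjamini-Hochberg values over all genes of the fit at a threshold of 0.05. The 4 markers were left out of counts of calls. Per direction the 14 genes with the largest log2 fold were named, among those without overlap, with a mean of at least 10 CPM over the 14 libraries and a name other than a clone number. From each of 20 lists the 2 members largest in size without overlap and members it is known for were named. Positions are from GENCODE vM21. DESeq2 1.42.0 and limma 3.58.1 (on log2(TPM + 1)) served as alternatives. Scripts were tested on simulated data. Within the 4 groups no library repeated another: the chi-square per degree of freedom of the closest pair was at least 4.02. Pairs across groups were not compared. Some genes that the naming rule picked are not reported here.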

Additional observations from a re-analysis of the deposited data

Results flagged for a closer look

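Among 72 groups of 5 values examined (28 named genes and 8 library measures in each state), 4 held 1 library far from the other 4. Chance alone flags about 5%, so the number flagged is near what chance gives. In the high state replicate 12 stood above the others for the theca and stroma list, at 9.15 against 4.57 to 5.75 on the scale of log2(summed TPM + 1), a gap of 0.742 of the whole range. The same library stood apart for the oocyte list, at 4.81 against 0 to 0.356, with a gap of 0.926 of the range. In the low state replicate 5 was the highest for the oocyte list, at 1.86 against 0 to 0.287, with a gap of 0.846. For Comp in the high state replicate 8 lay at 9.62 on the log2(CPM + 1) scale against 8.36 to 8.63 in the others, with a gap of 0.782.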

How the results depend on the processing

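Of 136 alternative values for counts of genes 107 stayed within 1.5 times the count reported. Counts between the states were 65 higher and 20 lower. They became 110 and 56 with 4 libraries a state, 23 and 6 with 7, and 102 and 58 with no filter on low counts. Leaving out each of the 10 libraries in turn gave 65 a range of 68 to 102 and 20 a range of 21 to 115, with 48 higher and 13 lower genes present in every such setting. With the next library in place of the last high one, added after seeing the data, they were 54 and 23. They were also 54 and 23 with the score from log2(CPM + 1), from scaled markers, without Inhba or without Hsd17b1. Each of these 4 planned settings shared 4 of its 5 high libraries with the main choice. No named gene changed direction between the states under any of these settings. The named genes were picked for no overlap between these same libraries, so a change of direction was hardly possible. Genes without overlap also largely stay so when a library is dropped. Neither result is a test of the differences. On the putative unruptured side the 13 genes that rose and 0 that fell became 26 and 2 with DESeq2, 22 rising with library totals, and 0 rising without the 2 libraries farthest from the median score. With no filter 2 fell, and 1 fell with either the theca and stroma level or log2 total counts as a second term. Leaving out each of the 15 libraries, also added later, gave 2 to 17 rising and 0 to 1 falling genes. Post-hCG, slopes gave 2 falling genes with DESeq2 and 1 rising gene with no filter. For hCG on the unruptured side, 1454 rose with library totals and 1621 fell with limma on log2(TPM + 1). Library totals moved the median log2 value of all genes to -0.10 between the states, 0.24 for the slope post-hCG and -0.25 for hCG. Replicate numbers showed little sign of pairing the sides, though weak correlations cannot exclude it. Over the 12 numbers shared by the 2 post-hCG sides correlations ran from -0.245 to 0.298, with 5 over 0.1. Over the 12 shared by the unruptured sides they ran from -0.158 to 0.201, with 2 over 0.1. Over the 14 shared by the sides without hCG they ran from -0.289 to 0.466, with 3 over 0.1. With the number as a replicate block 2112 genes rose and 2266 fell with hCG, and 0 genes had a slope post-hCG. The cause of these shifts was not tested. At these depths a gene of a few CPM rests on few counts.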

Other observations

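Outside the cell cycle list, 11 of the 65 genes higher in the high state are known to act in mitosis. They were picked after their values were seen, with no count of other such genes: Ube2c, Cenpa, Hmmr, Ckap2l, Cdc20, Sgol2a, Ckap2, Pttg1, Cdca8, Kif22 and Tacc3, with log2 folds of 1.05 to 1.81. On the putative unruptured sides all 11 had a slope on the marker score above 0, against 46.9% of all genes, and 0 of them passed the edgeR test.

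Another 4 of the 65 genes are given singly, also picked after their values were seen. Sdf2l1, a partner of the chaperone BiP, was at 8.43 to 20.0 CPM in the high state and 0.971 to 7.64 CPM in the low state, and Hspa5, which encodes BiP, at 1539 to 3215 against 959 to 1389 CPM. Calr, calreticulin, was at 667 to 1532 against 484 to 596 CPM, and Creb3l2, a membrane-bound transcription factor, at 277 to 444 against 114 to 225 CPM. On the putative unruptured sides 3 of the 4 had a slope above 0 and 0 passed. With hCG on the unruptured side Sdf2l1 (1.35 ± 0.22 log2 units, adjusted p = 6.15e-06, edgeR) and Calr (0.64 ± 0.18, 0.00388) rose and Creb3l2 fell by 0.43 ± 0.13 (0.00707).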
